A study of Mus musculus with 4 samples.

Results

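The 9 complement genes C1qa, C1qb, C1qc, C1ra, C1s1, C3, C4b, Cfb and Serping1 were followed through 4 single-cell libraries of mouse Achilles tendon. They were chosen by name as components and regulators of complement and are 9 of the 27040 genes listed in all 4 libraries. All 9 had UMIs (unique molecular identifiers, each standing for 1 captured transcript) in every library. Each group had 1 library made from 5 pooled tendons. The groups were untreated Prox1 eGFP tendon (day 0), Prox1 eGFP tendon at days 7 and 21 after an injury abbreviated B/T in the labels, and Vegfc CRE tendon at day 7 after that injury. Prox1 is the transcription factor that sets lymphatic endothelial identity, eGFP is a fluorescent reporter and CRE is a recombinase. The promoter construct and the target of CRE in these lines are not given in the sources used here. The labels describe a sort for Prox1-expressing cells and also call the cells unsorted. A Prox1 UMI was present in 8.84% of cells at day 0, 96.8% and 86.7% at days 7 and 21 of Prox1 eGFP and 1.15% in Vegfc CRE. Vegfc CRE and Prox1 eGFP at day 7 thus shared a time point but not a makeup of cells, and genotype, sort and library cannot be told apart. No comparison had replicates, so no test was possible, and every interval is a 95% interval for counting error alone.

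Complement is a cascade of plasma and tissue proteins that marks targets for clearance. In the classical pathway C1q, built from the C1qa, C1qb and C1qc chains, binds a target and activates the serine proteases C1r and C1s, which cleave C4 and C2 to form an enzyme that cleaves C3. Factor B (Cfb) forms the corresponding enzyme of the alternative pathway, and the C1 inhibitor encoded by Serping1 inactivates C1r and C1s. Tissue macrophages are a well-known source of C1q, while mesenchymal cells make much of the local C1r, C1s and C1 inhibitor.

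The genes lie on 4 chromosomes of build mm10 by the GENCODE M21 annotation, and all are protein-coding. C1qb (ENSMUSG00000036905), C1qc (ENSMUSG00000036896) and C1qa (ENSMUSG00000036887) are neighbours on the minus strand of chromosome 4 between 136880129 and 136898803. C1ra (ENSMUSG00000055172) starts at 124512405 on the plus strand of chromosome 6, and C1s1 (ENSMUSG00000038521) ends at 124542359 on its minus strand. C3 (ENSMUSG00000024164), C4b (ENSMUSG00000073418) and Cfb (ENSMUSG00000090231) are on the minus strand of chromosome 17, from 57203970, 34728380 and 34856374. Serping1 (ENSMUSG00000023224) lies on the minus strand of chromosome 2 from 84765387 to 84775444.

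RefSeq promoter windows (GRCm38.p6) were listed for 5 of the 9 genes, and the 4 that could be printed are shown here. They were not chosen by cell source. C1qb and C1qc were highest in macrophage-like cells, C1s1 and C3 in fibroblast-like cells. Each window holds the 250 bases before the RefSeq start and reads 5′ to 3′ on the gene's own strand. For C1qc only its first 99 bases are printed, those outside the GENCODE gene, and the C1ra window is not printed because it lies mostly inside the annotated gene. For C1s1, which had 2 starts listed, the one nearest the gene's end was used. Capitals mark matches on either strand to GAGGAA, the core bound by PU.1 and other ETS factors, or to TTGCNNAA, a C/EBP-type element.
C1qb, chr4:136886201-136886450, minus strand: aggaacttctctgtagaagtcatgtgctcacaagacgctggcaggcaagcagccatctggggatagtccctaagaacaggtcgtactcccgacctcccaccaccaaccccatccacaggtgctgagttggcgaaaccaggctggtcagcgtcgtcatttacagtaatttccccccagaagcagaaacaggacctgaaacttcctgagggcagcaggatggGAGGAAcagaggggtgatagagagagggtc
C1qc, chr4:136893066-136893164, minus strand: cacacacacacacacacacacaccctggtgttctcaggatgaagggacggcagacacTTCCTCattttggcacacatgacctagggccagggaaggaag
C1s1, chr6:124542360-124542609, minus strand: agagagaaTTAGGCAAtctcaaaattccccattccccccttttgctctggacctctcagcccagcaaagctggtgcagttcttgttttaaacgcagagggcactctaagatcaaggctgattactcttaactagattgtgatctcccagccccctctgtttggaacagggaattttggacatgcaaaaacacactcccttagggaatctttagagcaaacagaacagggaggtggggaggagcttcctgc
C3, chr17:57228137-57228386, minus strand: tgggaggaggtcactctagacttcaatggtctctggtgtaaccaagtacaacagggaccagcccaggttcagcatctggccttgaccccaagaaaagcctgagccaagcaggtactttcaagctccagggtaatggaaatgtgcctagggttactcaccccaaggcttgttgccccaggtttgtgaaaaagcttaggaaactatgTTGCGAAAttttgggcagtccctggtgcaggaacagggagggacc
GAGGAA or its reverse complement occurred once in each of the C1qb and C1qc windows, from base -30 and base -193 before the start, and was found in 23.3% of 32851 promoter windows of 250 bases. TTGCNNAA occurred once in C3, from base -45, and once in C1s1, from base -242, against 9.56% of all windows. TTCNNNGAA (a STAT element, in 7.02% of windows) and TGANTCA (an AP-1 element, in 6.75%) had no match in the 5 windows, no matches overlapped, and C1ra matched none of the 4 motifs. A match describes letters and not a bound site.

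How did the genes stand in each library as a whole? The C1q chains stood highest in Vegfc CRE, Serping1 was lowest at day 0, and C3 was lowest in Prox1 eGFP day 7. Values are in CPM, UMIs per 1000000 UMIs of the cells summed. C1qb was 26.5 CPM in untreated Prox1 eGFP, 18.5 and 72.8 CPM by days 7 and 21, and 782 CPM in Vegfc CRE. C1qa was 22.3, 15.3, 65.5 and 633 CPM in the same order, and C1qc was 16.8, 9.59, 41.0 and 368 CPM. The 3 chains therefore kept 1 order of libraries, with Vegfc CRE highest and Prox1 eGFP day 7 lowest. C1ra was 38.3, 12.7, 37.3 and 73.1 CPM, and C1s1 was 38.5, 4.57, 45.7 and 117 CPM. Serping1 was 90.5, 285, 420 and 513 CPM. C3 was 367, 13.7, 56.3 and 307 CPM from day 0 to Vegfc CRE. These sums follow the mix of cells in each library: fewer cells of a type and less RNA per cell cannot be told apart in them. C4b was 57.8, 29.9 and 86.3 CPM and Cfb 16.6, 34.9 and 143 CPM at day 0, at day 21 and in Vegfc CRE.

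For C4b and Cfb the Prox1 eGFP day 7 library was not compared with the others, because its gene list differed at both genes. That list has Gm20547, which overlaps 79.5% of the exon bases of Cfb on the same strand, and lacks C4a, a near copy of C4b. Its own values were 4.66 CPM for C4b and 5.52 CPM for Cfb.

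**Figure D1:**
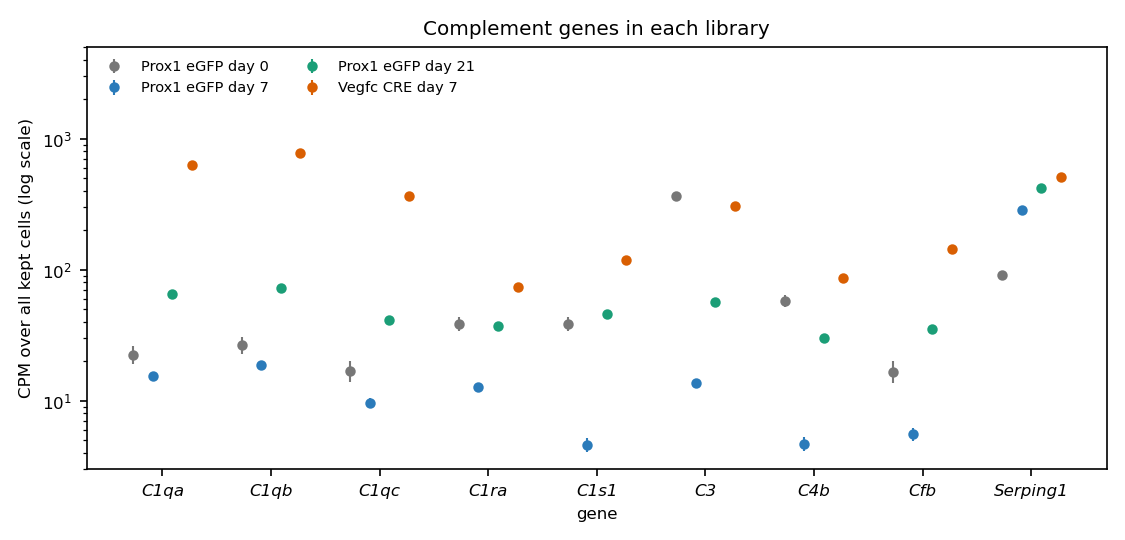
CPM (log scale) of each gene over all kept cells of each library, with 95% Poisson intervals for counting error. The C1q chains stand far highest in Vegfc CRE day 7 (782 CPM for C1qb), and C3 is 367 CPM at day 0 and 307 CPM there; C4b and Cfb at Prox1 eGFP day 7 were counted on another gene list.

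Which cells held these transcripts? Cells were clustered without the complement genes and named by fixed markers, with "-like" for each name. A class of a library was described where it held at least 30 cells. The macrophage-like cells (cluster 8) carried all 9 macrophage markers and led with Cd163, Folr2 and Ccl8. Monocyte-like cells (cluster 5) led with Chil3, Ccr2 and class II antigen-presentation genes. Cluster 9 had 8 macrophage markers but led with Arg1, Gpnmb and the osteoclast markers Atp6v0d2 and Acp5, so it kept its number. The fibroblast-like cells (cluster 6) carried all 9 fibroblast markers, and cluster 7, which led with Cxcl5 and Tnc and mixed tenocyte and fibroblast markers, also kept its number. Tenocyte-like cells carried all 7 tenocyte markers. They numbered 0, 8, 96 and 405 from day 0 to Vegfc CRE, so cells with tendon markers were few in a tissue labelled tendon, except in the last library.

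The macrophage and monocyte clusters held most C1q UMIs in every library, and stromal cells most C1ra, C1s1, C3, C4b and Serping1 UMIs in all but Prox1 eGFP day 7. Macrophage-like cells alone held 51.4% of C1qb UMIs at day 0 (91 of 177), 47.9% at day 7 (523 of 1091), 58.7% at day 21 (2466 of 4199) and 49.2% in Vegfc CRE (33352 of 67760). Those cells numbered 15, 6, 47 and 661, so 6 cells carried about as large a part of C1qb in Prox1 eGFP day 7 as 661 cells did in Vegfc CRE. Fibroblast-like cells held 83.2% of C3 UMIs at day 21 and 74.3% in Vegfc CRE, and 39.0% and 60.9% of Serping1 UMIs. In Prox1 eGFP day 7, which had 6 fibroblast-like cells, lymphatic endothelial-like cells held 80.7% of C3 UMIs and muscle progenitor-like cells 75.7% of Serping1 UMIs. A sort can set such shares, and the levels within each class follow.

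**Figure D2:**
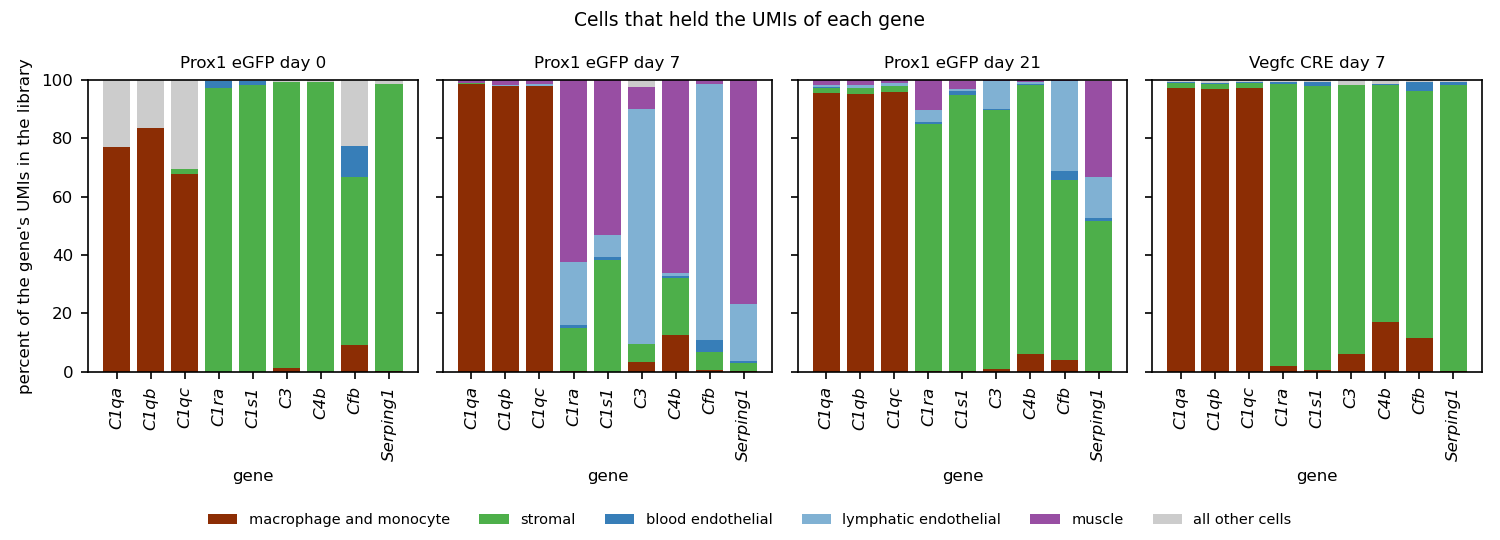
Percent of each gene's UMIs that lay in each lineage, by library. Stromal joins fibroblast-, tenocyte- and mural-like cells with cluster 7, and macrophage and monocyte joins clusters 8, 5 and 9; the C1q chains are macrophage and monocyte in every library, while C3 at Prox1 eGFP day 7 is mostly lymphatic endothelial (80.7%).

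**Figure D3:**
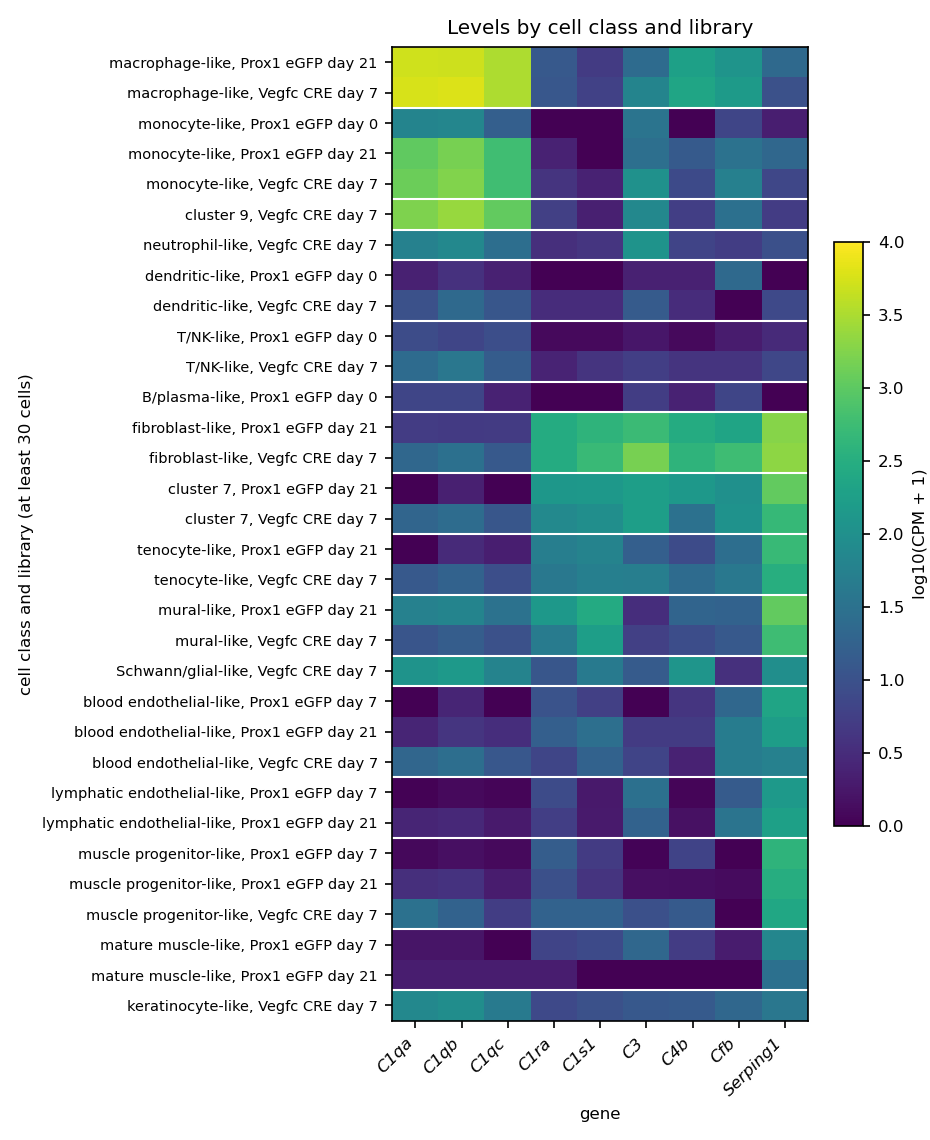
Level of each gene, as log10(CPM + 1), in every class and library with at least 30 cells. The 3 C1q columns are bright in macrophage-like, monocyte-like and cluster 9 rows, and the other 6 genes are brightest in fibroblast-like rows.

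The C1q chains had 1 pattern. In macrophage-like cells C1qb was 4976 CPM (4782 to 5176) for the day 21 library and 6157 CPM (6091 to 6224) for the Vegfc CRE library. C1qa was 5079 and 5683 CPM, and C1qc 3198 and 3252 CPM. The 2 libraries were thus close for each chain, at ratios of 1.24 for C1qb, 1.12 for C1qa and 1.02 for C1qc. All 3 chains were seen together in 97.9% of the macrophage-like cells of both libraries. In monocyte-like cells C1qb was 66.8, 1506 and 1717 CPM for day 0, day 21 and Vegfc CRE, from 56, 56 and 946 cells. The untreated library was the low one: its level was 22.5-fold lower than at day 21 and 25.7-fold lower than in Vegfc CRE (19.8 to 33.9). Which day 0 cells fell in this class depended on the clustering. With complement genes among the variable genes, 11 day 0, 26 day 21 and 886 Vegfc CRE cells were monocyte-like. A dendritic-like cluster then held 45, 32 and 180 cells of these libraries, so the folds can compare unlike mixes of cells. A C1qb UMI was present in 10.7% of day 0, 35.7% of day 21 and 47.1% of Vegfc CRE monocyte-like cells. After thinning every cell to 2000 UMIs these shares were 1.89%, 36.0% and 42.1%. Cluster 9 of Vegfc CRE stood between the other 2, at 2425 CPM of C1qb, which was 2.54-fold below macrophage-like cells of the same library (2.50 to 2.58).

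C1q levels outside these clusters were lower than within them in each library with at least 30 such cells, but C1qc at day 0 was not resolved. It was 15.2 CPM (8.11 to 26.1) in monocyte-like and 8.19 CPM (5.60 to 11.6) in T/NK-like cells of day 0. In Vegfc CRE, the highest C1qb levels outside these clusters were in Schwann/glial-like cells, at 146 CPM in 10.0% of 60 cells, and in keratinocyte-like cells. C1qb was 89.2 CPM in the latter. It was 72.4 CPM in neutrophil-like, 28.9 CPM in fibroblast-like, 27.0 CPM in blood endothelial-like and 17.1 CPM in tenocyte-like cells. In Prox1 eGFP day 21 the fibroblast-like and blood endothelial-like levels were 3.79 and 3.17 CPM. A C1qb UMI was found in 23.6% of Vegfc CRE fibroblast-like cells, with a median of 18917 UMIs a cell, against 16.2% of blood endothelial-like cells at a median of 9679. C1qa, C1qb and C1qc made up 33.5%, 46.8% and 19.7% of the C1q UMIs of those fibroblast-like cells and 35.5%, 43.9% and 20.6% in the whole library. In blood endothelial-like cells they made up 34.4%, 46.5% and 19.1%. The source of these UMIs was not tested.

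C1ra, C1s1 and Serping1 were highest in fibroblast-like cells of the libraries that held at least 30 of them. C1ra was 293 CPM for day 21 and 290 CPM for Vegfc CRE, a ratio of 0.988 (0.930 to 1.05). Near copies of C1ra and C1s1 (C1rb and C1s2) lie in the same region, so counts of both genes are uncertain. C1s1 was 398 and 505 CPM, 1.27-fold higher in Vegfc CRE (1.21 to 1.33). Serping1 was 1887 and 2086 CPM, 1.11-fold higher (1.08 to 1.13), and 99.3% and 99.9% of the fibroblast-like cells had a Serping1 UMI. For these 3 genes the 2 libraries therefore lay within 1.27-fold of each other in fibroblast-like cells. In mural-like cells, the contractile cells around vessels, C1s1 was 283 and 176 CPM for day 21 and Vegfc CRE, and Serping1 was 1104 and 571 CPM. Both were lower in Vegfc CRE, by 1.60-fold (1.38 to 1.86) for C1s1 and 1.93-fold (1.79 to 2.09) for Serping1. C1ra, at 134 and 45.9 CPM, was 2.93-fold lower (2.28 to 3.74). Among fibroblast markers in these mural-like cells, Dcn was 1420 and 261 CPM and Lum 219 and 54.1 CPM. Pdgfra went the other way, at 3.47 and 7.89 CPM. The part of fibroblast transcripts in these differences was not tested. In tenocyte-like cells C1ra was 50.7 and 39.0 CPM, C1s1 61.4 and 51.9 CPM, and Serping1 489 and 323 CPM. Tenocyte-like cells thus stood below fibroblast-like cells of the same library for each of the 3, by 6.49-fold for C1s1 at day 21 (5.51 to 7.69) and 9.73-fold in Vegfc CRE (8.89 to 10.7).

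Serping1 was also present in muscle progenitor-like cells, which carry markers such as Pax7 and Myf5. It was 399 and 310 CPM by days 7 and 21 of Prox1 eGFP, and 241 CPM among the 36 such cells of Vegfc CRE. The level at day 21 was 1.29-fold below that at day 7 (1.25 to 1.32), and 88.6% and 82.0% of these cells had a UMI. In these cells 4 of 7 genes compared (the C1q chains and C3) were at least 2-fold higher at day 21 than at day 7, against 4.54% of all genes, all 4 on 15 or fewer UMIs at day 7. Macrophage-like cells held 22.2 and 8.86 CPM of Serping1 at day 21 and in Vegfc CRE, at or under 12.8% of cells with a UMI. In those 47 and 661 cells the summed fibroblast markers were 1035 and 372 CPM, the muscle progenitor markers 188 and 8.31 CPM and the lymphatic markers 777 and 100.2 CPM. Their part in the Serping1 level was not tested.

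C3, C4b and Cfb were also highest in fibroblast-like cells, and C3 and Cfb stood higher in Vegfc CRE. C3 was 539 CPM (519 to 560) for day 21 against 1527 CPM (1506 to 1548) for Vegfc CRE, a 2.83-fold difference (2.72 to 2.95). Cfb was 216 and 575 CPM, a 2.66-fold difference (2.50 to 2.84). C4b was 290 and 392 CPM, which is 1.35-fold (1.27 to 1.43) and under the 2-fold line used here. A C3 UMI was present in 62.5% and 84.8% of fibroblast-like cells, and in 39.9% and 64.4% after thinning to 2000 UMIs. Within Vegfc CRE, thinned cells with a C3 UMI had Cfb in 66.6% and C4b in 54.4%, against 34.3% and 22.0% of those without one. At day 21 the same split gave 32.1% against 25% for Cfb and 50.5% against 17.1% for C4b.

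Of the 9 genes, 5 were at least 2-fold higher in fibroblast-like cells of Vegfc CRE than of day 21, and none was at least 2-fold lower. Over all 13220 genes with at least 10 UMIs, 7.13% were at least 2-fold higher and 5.2% lower, together 12.3%. The 5 were C3, Cfb and the 3 C1q chains, the last on 19 to 21 UMIs each at day 21. The median log2 ratio of the 9 was 1.41, and over all genes it was -0.07. With clusters at resolution 2.0, or with a gate on markers cell by cell, 3 of the 9 were at least 2-fold apart in either direction. The count thus depended on how cells were classed. Which of the 5 calls were lost is not given here, so the C3 and Cfb folds hold for the classes used here. Acute-phase genes from a fixed list, which are known to respond to inflammation, also stood higher: Hp was 55.5 and 364 CPM, Saa3 9.78 and 187 CPM, and Lcn2 9.78 and 79.6 CPM. Of the interferon-response genes on that list, Isg15 was 51.7 and 109 CPM while Cxcl10 was 47.9 and 44.5 CPM. The summed neutrophil markers in these fibroblast-like cells were 79.9 and 325 CPM, with neutrophil-like cells numbering 1359 in the Vegfc CRE library. Their part in the difference was not tested.

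Other stromal cells did not share one pattern. In tenocyte-like cells C3 was 15.4 and 49.6 CPM, 3.21-fold higher in Vegfc CRE (2.32 to 4.57), and C4b was 7.12 and 24.1 CPM, 3.38-fold higher (2.09 to 5.80). Cfb, at 26.5 and 38.8 CPM, was 1.46-fold higher (1.12 to 1.92). Of the 9 genes 5 (also the C1q chains) were at least 2-fold higher, against 9.87% of all genes. C1qa, C1qb and C1qc were 0, 1.98 and 1.19 CPM in these cells at day 21. In cluster 7, C3 was 176 and 174 CPM and Cfb 100.2 and 110 CPM, so neither differed by 2-fold from day 21 to Vegfc CRE. C4b was 132 and 30.2 CPM there, 4.39-fold lower in Vegfc CRE (3.55 to 5.38), and so was Serping1, so 2 of 9 genes were at least 2-fold lower, against 11% of all genes. The C1q chains were at least 2-fold higher, 3 of 9 against 19.9%, from 0 (C1qa), 1.24 (C1qb) and 0 CPM (C1qc) at day 21. Only 33 cells of cluster 7 came from day 21. Mural-like cells had C3 of 2.32 and 4.68 CPM, on 2 and 16 UMIs, and C3 was the 1 of 9 genes at least 2-fold higher in Vegfc CRE, against 14% of all genes. There 5 of 9 were at least 2-fold lower (the C1q chains, C1ra and C4b), against 10.9%. The C1qb level of the day 21 mural-like cells, 62.5 CPM, came from 2.47% of the cells.

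**Figure D4:**
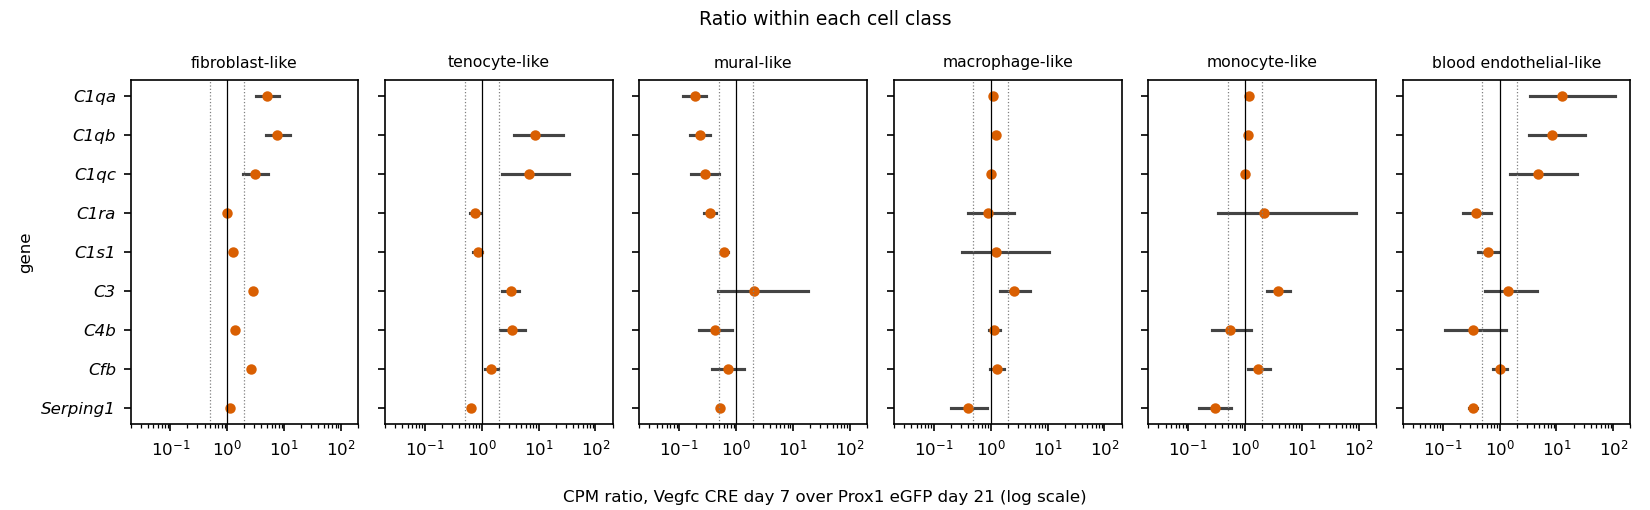
CPM ratio of Vegfc CRE day 7 over Prox1 eGFP day 21 for each gene in 6 classes (log scale), with 95% intervals for counting error; dotted lines mark 2-fold. C3 (2.83) and Cfb (2.66) stand above 2 in fibroblast-like cells, while C1ra (0.988) and Serping1 (1.11) lie near 1.

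Among myeloid cells, C4b set the macrophage-like cells apart from the rest. In macrophage-like cells C4b was 190 CPM (153 to 232) for day 21 and 221 CPM (209 to 234) for Vegfc CRE. It was 12.4 and 6.84 CPM in monocyte-like cells and 4.54 CPM in cluster 9. Macrophage-like cells thus stood 15.3-fold (7.70 to 34.4) and 32.3-fold (23.9 to 44.7) above monocyte-like cells of the same library, and 48.7-fold above cluster 9 (35.5 to 68.5). Cfb followed with smaller gaps: it was 117 and 152 CPM in macrophage-like, 31.8 and 54.4 CPM in monocyte-like cells and 29.4 CPM in cluster 9. C3 was 24.2 and 61.8 CPM in macrophage-like cells, 27.6 and 104 CPM in monocyte-like cells and 71.6 CPM in cluster 9. In Vegfc CRE monocyte-like cells stood 1.69-fold above macrophage-like cells for C3 (1.48 to 1.93), while at day 21 the order was not resolved, at 1.14-fold (0.531 to 2.56). Neutrophil-like cells of Vegfc CRE held 111 CPM of C3, close to its monocyte-like cells, and 16.4% of them had a C3 UMI after thinning. Fibroblast-like cells, at 1527 CPM, are the highest C3 class of that library.

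From day 21 to Vegfc CRE, 2 of the 9 genes were at least 2-fold apart in macrophage-like cells, against 23.3% of all genes (11.9% higher and 11.4% lower). C3 was 2.55-fold higher (1.44 to 4.99) and Serping1 2.50-fold lower (1.17 to 4.89). Serping1 reversed, to a log2 ratio of 0.34 with the marker gate and 0.66 with more doublets removed. In monocyte-like cells 3 of 9 (C3, C1ra and Serping1) were at least 2-fold apart, against 25.8% of all genes, and C3 was 3.78-fold higher (2.43 to 6.22). Serping1 was lower there and reversed to 0.68 with more doublets removed. The C3 counts at day 21 were 12 in macrophage-like and 20 in monocyte-like cells. C1ra in monocyte-like cells was 1.38 CPM (0.0350 to 7.70) at day 21, against 2.95 CPM in Vegfc CRE. From day 0 to day 21 monocyte-like cells had 5 of the 6 genes with at least 10 UMIs at least 2-fold higher (the C1q chains, Cfb and Serping1), against 15.6% of all genes. After thinning 3 were at least 2-fold apart in either direction. From day 0 to Vegfc CRE 8 of 8 were at least 2-fold higher, against 20.6%. C1ra, C4b and Serping1 passed the 10-UMI minimum through Vegfc CRE alone. At day 0 they were 0, 0 and 1.17 CPM, with upper limits of 4.32, 4.32 and 6.53 CPM. In Vegfc CRE they were 2.95, 6.84 and 6.06 CPM, so a 2-fold difference is not resolved for them. Both day 0 comparisons share the same day 0 cells, whose class depended on the clustering.

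In lymphatic endothelial-like cells, which only Prox1 eGFP days 7 and 21 held in number (991 and 1913 cells), Serping1, C3 and Cfb were present, while C1s1 and C4b were below 1 CPM. Serping1 was 146 CPM at day 7 and 185 CPM at day 21, 1.27-fold higher at day 21 (1.21 to 1.33). C3 was 29.3 and 16.9 CPM, a ratio of 0.575 (0.501 to 0.659) of day 21 over day 7, and 23.8% and 10.8% of cells had a UMI at median depths of 18921 and 8766 UMIs. After thinning the C3 shares were 4.86% and 3.14%. C3 in muscle progenitor-like cells of the same libraries was 0.0945 and 0.466 CPM, on 3 and 12 UMIs. C1s1 was 0.903 and 0.913 CPM. Of the 7 genes compared, 3 were at least 2-fold higher at day 21, against 3.76% of all genes, and none was lower, against 7.87%. The 3 were C1q chains, with 1 to 6 UMIs each at day 7 and 18 to 36 at day 21.

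The 2 large lymphatic clusters differed in complement. Cluster 2 leads with Clca3a1 and Cldn11, and cluster 4 with Lyve1 and Reln. C3 was 48.6 CPM in cluster 2 and 17.1 CPM in cluster 4 at day 7, a 2.84-fold difference (2.32 to 3.50), and 23.3 and 11.8 CPM at day 21, a 1.98-fold difference (1.55 to 2.53). Cfb was 51.8 CPM in cluster 2 and 16.6 CPM in cluster 4 at day 21, or 3.13-fold (2.59 to 3.81). Within day 7, where both clusters share 1 gene list, Cfb was 22.2 and 4.81 CPM, or 4.62-fold (3.21 to 6.83). Serping1 did not separate them, at 174 and 169 CPM at day 7 and 190 and 194 CPM at day 21. Cluster 2 thus stood higher for C3 and Cfb on both days.

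Blood endothelial-like cells held Cfb and Serping1 and little C3. They numbered 33 and 121 at days 7 and 21 of Prox1 eGFP and 677 in Vegfc CRE, and joined cluster 10, which leads with Vwf, Ackr1 and Selp, with cluster 17, which leads with Aqp7, Tcf15 and Car4. Serping1 was 216, 166 and 56.8 CPM in the same order. It was 2.93-fold lower in Vegfc CRE than at day 21 (2.48 to 3.46). Cfb was 46.7 and 47.4 CPM in these 2 libraries, a ratio of 1.01 (0.769 to 1.36). The mix of clusters differed, with 64 cells of cluster 10 and 57 of cluster 17 at day 21 against 499 and 178 in Vegfc CRE, and Cfb was lower in cluster 10 but higher in cluster 17 of Vegfc CRE than of day 21. C3 was 3.96 and 5.63 CPM in these libraries, with no UMI among the 33 cells of day 7. From day 21 to Vegfc CRE 3 of 9 genes, the C1q chains, were at least 2-fold higher, against 11.2% of all genes. They had 2 to 4 UMIs each at day 21. Another 3 were at least 2-fold lower (C1ra, C4b and Serping1), against 9.66%. After thinning 3 of the 9 were at least 2-fold apart. From day 7 to Vegfc CRE 6 of 7 were at least 2-fold apart, against 27.7%: Serping1 lower, and the C1q chains, C1s1 and C3 higher. Among the 33 day 7 cells C1qa, C1qc and C3 had no UMI, C1qb had 1 and C1s1 had 3. Those genes thus passed the 10-UMI minimum through Vegfc CRE. The day 7 upper limit for C3 was 5.85 CPM, against 5.63 CPM in Vegfc CRE, so its call is not resolved. From day 7 to day 21 only C1s1 of the 3 with at least 10 UMIs was at least 2-fold higher, against 7.53%, with 3 and 35 UMIs. Cluster 10 alone reversed C1ra, to a log2 ratio of 1.38 on 1 and 22 UMIs.

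The 2 blood endothelial clusters differed in the levels of C1s1 and Cfb. C1s1 was 65.9 CPM in cluster 17 and 0 in cluster 10 at day 21, on 35 and 0 UMIs. For Vegfc CRE it was 64.8 CPM in cluster 17 and 3.08 CPM in cluster 10, a 21.1-fold difference (12.9 to 36.2). Cfb ran the other way, at 75.2 CPM in cluster 10 and 7.53 CPM in cluster 17 at day 21, and 52.6 and 29.7 CPM in Vegfc CRE. Cluster 10 was therefore 9.99-fold above cluster 17 for Cfb at day 21 (3.69 to 37.9) and 1.77-fold in Vegfc CRE (1.33 to 2.41). Serping1 was 144 and 198 CPM in clusters 10 and 17 at day 21 and 31.1 and 144 CPM in Vegfc CRE. Cluster 17 carried 8 pan-endothelial markers but also 3 mural markers, and mural-like cells held 283 and 176 CPM of C1s1 at day 21 and in Vegfc CRE. After thinning, 12 of 644 blood endothelial-like cells of Vegfc CRE had a C1s1 UMI. Serping1 was seen in 50% of them and in 5.70% of the rest. The part of mural transcripts in the C1s1 level was not tested.

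A Prox1 UMI was present in 84.8% and 28.1% of blood endothelial-like cells at days 7 and 21 of Prox1 eGFP and in 2.81% in Vegfc CRE, while Lyve1 was present in 12.1%, 6.61% and 2.22%. Cells were then split by a Prox1 UMI within each library, a split chosen after the values were seen. At day 21 Serping1 was 349 CPM in the 34 cells with a Prox1 UMI and 67.2 CPM in the 87 without one. In Vegfc CRE it was 122 CPM in 19 cells and 54.6 CPM in 658 cells. Cfb, split the same way, was 58.5 CPM with a Prox1 UMI and 40.3 CPM without one at day 21. In Vegfc CRE it was 90.3 and 46.0 CPM. Levels without a Prox1 UMI were not close between the 2 libraries for each gene split this way. At day 7 Serping1 was 249 CPM in 28 cells with a Prox1 UMI and 40.4 CPM in 5 without one. The part of these cells in the difference between libraries was not tested. Cells with a Prox1 UMI were also deeper at day 21, with a median of 10485.5 against 6698 UMIs.

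**Figure D5:**
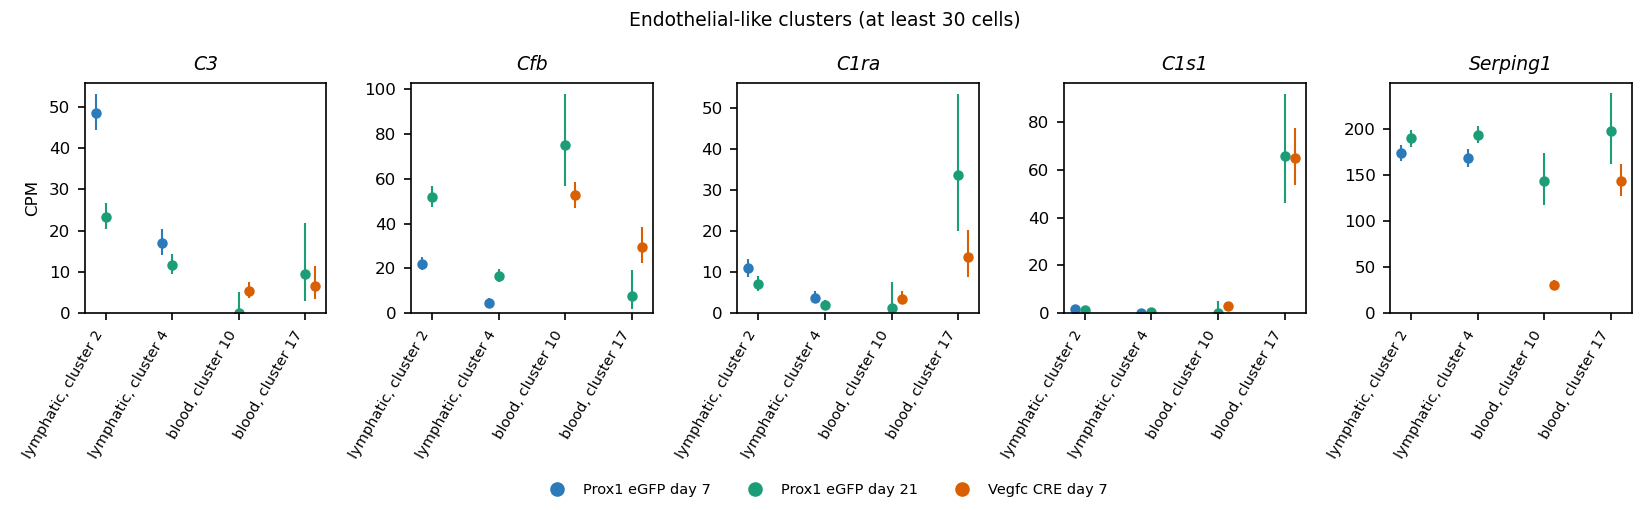
CPM of 5 genes in lymphatic clusters 2 and 4 and blood endothelial clusters 10 and 17, by library, with 95% Poisson intervals. C3 and Cfb are higher in cluster 2 than in cluster 4, and C1s1 is near 0 outside cluster 17 (65.9 and 64.8 CPM), which also carried 3 mural markers.

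At day 0 the stromal complement genes came from very few cells. Of 2447 C3 UMIs, 97.6% lay in 26 cells of cluster 13, as did 92.2% of C1ra, 93.4% of C1s1, 96.9% of C4b and 84.9% of Serping1 UMIs. C3 was seen in all 26, with 3 to 300 UMIs a cell and a median of 83. Cluster 13 is mural-like, but these 26 cells also had Dcn in 100% and the fibroblast marker Pdgfra in 73.1%, and the chemokine Cxcl13 at 1465 CPM. The mural markers Rgs5 and Acta2 were present in 76.9% and 84.6% of them. They fell below the 30-cell minimum and are called cluster 13 cells of day 0 here, with no comparison of their levels with other mural-like cells.

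The other genes of the pathway were taken from a list of 43, of which 42 were in the shared gene names. Properdin (Cfp), which stabilises the alternative pathway enzyme, was 502 and 640 CPM in macrophage-like cells of day 21 and Vegfc CRE, and C3ar1, the C3a receptor, was 256 and 449 CPM. C6, a terminal component, was 115 and 30.3 CPM there. The C5a receptor C5ar1 was highest in neutrophil-like cells, at 602 CPM. Vtn, which blocks the terminal complex, was 400 and 191 CPM in mural-like cells. Of the 26 other pathway genes with at least 10 UMIs in fibroblast-like cells, 10 were at least 2-fold higher and 3 lower in Vegfc CRE, against 7.13% and 5.2% of all genes. The 10 include Cfp, C3ar1, C5ar1 and Cd93, which stood highest in myeloid or endothelial classes. In macrophage-like cells 2 of 16 were higher and 2 lower, near the 11.9% and 11.4% of all genes. In lymphatic endothelial-like cells none of 20 was higher and 3 were lower at day 21, against 3.76% and 7.87%. In blood endothelial-like cells of Vegfc CRE 4 of 20 were higher and 9 lower, against 11.2% and 9.66%.

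Pattern likeness was measured over 32 class-by-library groups of at least 30 cells as Pearson's r of log2(CPM + 1). The groups share libraries and depth, so r is a description. C1qa, C1qb and C1qc had r of 0.98 to 0.99 with each other. C1ra had r of 0.94 with C1s1 and 0.90 with Serping1, and Serping1 had r of -0.36 with C1qb. C3 had r of 0.66 with Cfb, 0.64 with C4b and 0.22 with Serping1. The genes most like the C1q chains were Ms4a7, Fcgr1, C3ar1, Lyz2 and Adgre1, with r from 0.96 to 0.94. Those most like C1ra, C1s1 and Serping1 were Ccdc80, Fbn1, Ndn, Col5a2 and P3h3, from 0.95 to 0.93. Those most like C3, C4b and Cfb were Mmp19, Dnm1, Fam102b, Ecm1 and Dse, with 0.82 at the highest.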

How the data were processed

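Single-cell 3' gene expression was measured in 4 libraries, 1 per group. The deposited matrices hold raw counts of UMIs per gene and barcode, which the authors made with Cell Ranger 5.0.1 on mm10, per the submitters' processing notes. The files held 717 to 8711 barcodes and 6761289 to 92568978 UMIs, and 27040 genes listed in all 4 were used. Barcodes below 500 genes or 1000 UMIs, or with 15% or more of UMIs from mitochondrial genes, were dropped. Scrublet doublet calls (0, 1, 87 and 93) were removed, which left 690, 4871, 6301 and 6978 cells with median UMIs of 7064.5, 8471, 7512 and 8505.5. Scrublet called 1 doublet in Prox1 eGFP day 7, against 190 expected by rate, so removal at an expected rate was an alternative. Any 2 libraries shared 1 to 10 barcodes.

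Counts per 10000, log-transformed, over 2000 variable genes without complement genes gave 30 components, 15 neighbours and 28 Leiden clusters at resolution 1 (scanpy 1.11.5, leidenalg 0.10.2). A name needed at least 3 fixed markers, each at least 2-fold higher and in at least 20% of cells. It was withheld where a second class reached over 80% of the leading class's marker share with as many of its markers among the top 10 genes, a rule set after the clusters were seen.

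UMIs were summed per class and library. Intervals (95%) are exact Poisson for CPM, Clopper-Pearson for shares of cells, and for ratios come from the binomial distribution of UMIs between the 2 sums. With 1 library per group nothing was tested between groups, and at least 2-fold is a call by size among genes with at least 10 UMIs. The ratio code was tested on simulated data. TMM factors came from edgeR 4.0.16 as an alternative. Members, lists and rules were chosen with earlier results of these data known. The named genes were the 9 members, pathway genes with at least 10 CPM in a macrophage-, fibroblast- or endothelial-like class, of which a selection is printed, and the 5 genes most like each of 3 sets. A gene of the pathway list is not reported here by name.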

Additional observations from a re-analysis of the deposited data

How the results depend on the processing

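Library levels, class levels, ratios between libraries, counts of members, leading classes and shares of cells were recomputed under other settings. These were other clusterings, cell filters, gene denominators, TMM scaling and a marker gate per cell. Doublet removal at an expected rate, thinning to 2000 UMIs and joined or single clusters chosen after seeing the data were also used. Not every setting was applied to every kind of value. Folds between clusters within a library, co-detection, pathway counts, correlations and near-copy shares were not recomputed. Outside the main interval lay 20 of 108 library levels, 223 of 783 class levels and 67 of 81 shares of cells. The class with most UMIs of a gene in a library was the same in 36 of 36 cases at resolution 0.5, 33 at resolution 2.0 and 29 with the gate. The percent of UMIs in the leading class was counted as moved in 79 of these 108 cases. For 81 ratios there were 531 recomputed values. Of these, 402 lay within the counting interval of the main ratio, 125 lay outside it and 4 reversed. A reversal was counted only where the main ratio was at least 2-fold. The reversed ratios were Serping1 in macrophage-like cells of Vegfc CRE over day 21, with a log2 ratio of 0.34 under the gate and 0.66 with doublets removed by rate, Serping1 in monocyte-like cells, 0.68 with doublets removed by rate, and C1ra in blood endothelial-like cells, 1.38 with cluster 10 alone. The cause was not tested. The number of members at least 2-fold apart between Vegfc CRE and day 21 went from 2 to 1 in macrophage-like cells with doublets removed by rate and to 1 with thinning, from 5 to 3 in fibroblast-like cells at resolution 2.0 and to 3 with the gate, and from 6 to 3 in blood endothelial-like cells with thinning. Between days 21 and 7 it went from 1 to 2 in blood endothelial-like cells with the gate and to 2 with doublets removed by rate, and from 4 to 2 in muscle progenitor-like cells with cluster 1 alone. Between days 21 and 0 it went from 5 to 3 in monocyte-like cells with thinning. In 199 cases a result had no value under a setting, because a class had too few cells or a count was 0. No paired analysis was possible because each group had 1 library. Some counts in endothelial-like cells of Prox1 eGFP were low. In blood endothelial-like cells C1s1 had 3 UMIs at day 7, and C4b had 2 and 5 at days 7 and 21. In lymphatic endothelial-like cells C4b had 3 and 10 UMIs.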

Other observations

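C1rb and C1s2, the near copies of C1ra and C1s1, were looked at after the values of the members were seen. In fibroblast-like cells C1rb held 3 UMIs beside 1468 of C1ra at day 21, 0.204% of the pair (0.0421% to 0.595%), and 251 beside 3755 in the Vegfc CRE library, 6.27% (5.53% to 7.06%). C1s2 held 0.598% of its pair with C1s1 (0.309% to 1.04%) and 5.46% (4.93% to 6.02%) in the same cells. Cluster 7, tenocyte-like and mural-like cells had 0 or 1 UMI of C1rb each at day 21 and 4.89%, 7.45% and 6.55% of the pair in Vegfc CRE. For C1s2 they also had 0 or 1 UMI at day 21, and 3.56%, 6.22% and 5.63% in Vegfc CRE. In fibroblast-like cells the intervals of the 2 libraries did not overlap. In other classes some did, such as C1s2 in cluster 7 (0.0230% to 4.96% at day 21 against 2.84% to 4.39%) and C1rb in mural-like cells (0.0216% to 4.67% against 3.31% to 11.4%). Genotype, day and library cannot be told apart here, and how the counting assigned reads shared by near copies is not given in the sources used here.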
